A study of Drosophila melanogaster with 8 samples.

Results

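Ribosomal proteins are described here for 8 genes of Drosophila melanogaster, 4 for the mitochondrial ribosome (mRpL52, mRpL40, mRpS33 and mRpL14) and 4 for the cytosolic ribosome (sta, RpL7, RpL11 and RpL29). They were chosen by name and matched to array probes through the identifier each probe carries, which gave 9 probes. The array had a probe with 1 known gene symbol for 353 genes in all. A RefSeq accession matched 7 of the 9 probes and a cDNA clone name the remaining 2, and mRpL52 was the gene with a pair of probes. All 9 were tested, since each was well above background on all 8 arrays and saturated on none.

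RNA came from the heads of adult flies of the genotype w, elav-GAL4/+; UAS-dTrpA1/+. The elav-GAL4 driver is active in neurons and expresses dTrpA1, a cation channel that opens on warming, so that neurons across the nervous system fire at the higher temperature. The study asked which transcripts respond to that activity. Both groups had this genotype, carried the channel and were reared at 23 °C to adulthood on standard food. The 4 control_23C samples stayed there, whereas flies of the 4 activated_31C samples spent 1 h at 31 °C just before dissection. Each sample was RNA from 20 heads of males and females together, and the sources used here do not give exact ages. Flies without the channel at 31 °C were not analysed here, so warmth and neural activity cannot be told apart. Each group was hybridised on a slide of its own, and for that reason the slide and the condition cannot be told apart either. The driver marks neurons, but the heads hold every cell type of the head. In such whole heads fewer cells of a type and less RNA per cell cannot be told apart.

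Cytosolic ribosomes translate the messages of nuclear genes, and their proteins are needed in near-equal amounts, so the genes for them are usually expressed together and at high levels. Mitochondrial ribosomes are a separate machine, built from proteins that are encoded in the nucleus, made in the cytosol and imported. They translate the few proteins encoded by mitochondrial DNA, which are core subunits of the respiratory chain and the ATP synthase that supply energy to neurons.

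Levels are given as the log2 of a probe's processed signal minus the 75th percentile of its array, which lay between 4601 and 5340 intensity units. A probe's brightness depends on its sequence, so levels of different genes are not compared, only differences between groups. A difference is activated_31C minus control_23C, and its p-value comes from limma, adjusted by the Benjamini-Hochberg method over 22442 probes, with a threshold of 0.05. Samples of a condition were prepared independently per the labels, and the p-values measure the spread between these pools. Of the tested probes, 43.4% passed the threshold, 19.1% as higher and 24.3% as lower in activated_31C, and the groups did not overlap for 43.1%. The median difference over all tested probes was −0.01, and the median absolute difference was 0.22. Of the probes past the threshold, 44.0% were higher, against 66.7% when arrays were centred on the median of their own detected probes, 28.6% when they were centred on 7 spike-in control probes and 30.9% without scaling. Of 7 neuronal markers looked for, Sh and slo (both potassium channel genes) had a named probe, and both were well above background on all 8 arrays. None of the 4 photoreceptor, 3 glial, 4 fat body and 3 muscle markers had one, so shifts among those cell types were not tested.

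mRpL52, a large-subunit protein of the mitochondrial ribosome that bacterial ribosomes lack, was the member with the clearest change, and it fell. The probe for clone RH01479 read 0.54, 0.51, 0.43 and 0.64 in control_23C replicates 1 to 4. In activated_31C replicates 1 to 4 it read 0.14, 0.03, 0.07 and 0.16. Every activated_31C array lay below every control_23C array, with a gap between the groups wider than the range within either. The mean fell from 0.53 ± 0.08 to 0.10 ± 0.06 (SD, n = 4 per group), a log2 difference of −0.43 (SE 0.0561, 95% interval −0.56 to −0.30, limma adjusted p = 0.000607). This is a 1.35-fold lower signal, or a change of −25.7%. Before any scaling, the signal of this probe was between 7160 and 7777 intensity units in control_23C and between 4854 and 5570 in activated_31C, again with no overlap. The call was lost when arrays were centred on the median of their own detected probes (−0.35, adjusted p = 0.159). Of all tested probes, 11.0% had a lower difference, and 25.9% had a difference at least as large in either direction.

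A second probe for mRpL52, matched through the RefSeq accession NM_136469, gave the same picture. It read 0.45, 0.52, 0.45 and 0.68 in control_23C replicates 1 to 4 and 0.14, 0.01, 0.08 and 0.17 in activated_31C replicates 1 to 4. The groups again did not overlap, and the difference was −0.43 (SE 0.0667, limma adjusted p = 0.00147), or −0.34 with an adjusted p of 0.197 under that centring. The levels of the pair differed most on control_23C replicate 1, by 0.0929. This second probe was printed at 2 spots of each array, and the spots taken singly gave differences of −0.38 and −0.47, each without overlap between the groups. The spots of control_23C replicate 1 stood furthest apart, at 6369 and 8349 intensity units. The Release 6 gene table lists no gene that overlaps mRpL52.

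**Figure D1:**
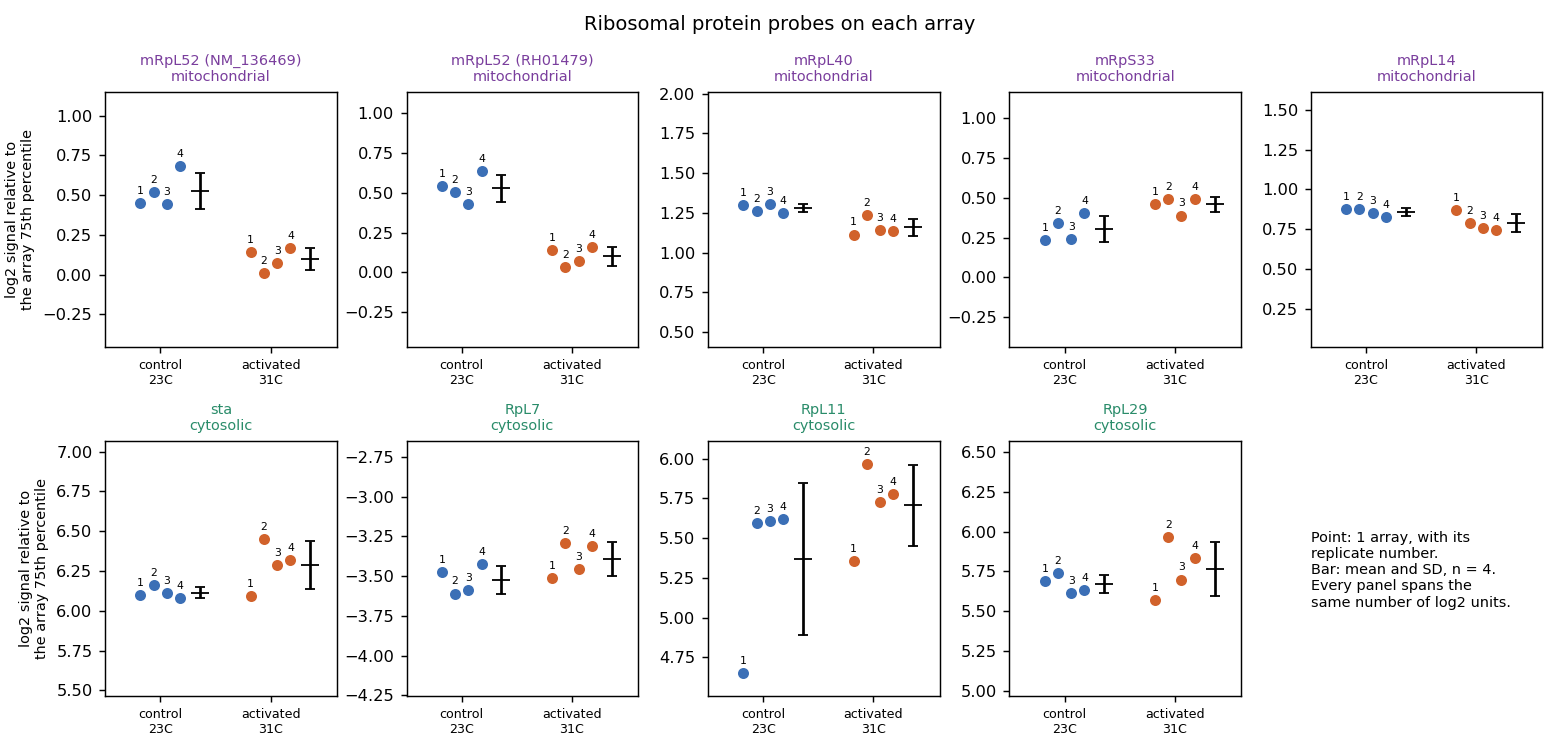
Level of each of the 9 probes on each of the 8 arrays, as log2 signal relative to the array's 75th percentile (y axis), for control_23C (blue) and activated_31C (orange), with replicate numbers and bars for the mean and SD of 4 arrays. Both mRpL52 probes show activated_31C arrays at 0.01 to 0.17, below control_23C arrays at 0.43 to 0.68, while RpL11 has control_23C replicate 1 at 4.65, far below the other 3 arrays of its group.

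mRpL40 encodes another large-subunit protein specific to mitochondria. It read 1.30, 1.26, 1.30 and 1.25 in control_23C replicates 1 to 4 and 1.11, 1.24, 1.15 and 1.14 in activated_31C replicates 1 to 4. The groups did not overlap, but activated_31C replicate 2 at 1.24 came close to control_23C replicate 4 at 1.25. The gene fell by a small amount, from 1.28 ± 0.03 to 1.16 ± 0.05 (SD, n = 4), a difference of −0.12 (SE 0.0418, limma adjusted p = 0.0477). That call was near the threshold. It was lost in 7 of the 8 fits that each left out 1 array and kept only without activated_31C replicate 2, with adjusted p-values from 0.0231 to 0.115 over these fits and differences from −0.15 to −0.11. Its 2 spots differed: the first gave −0.06 with overlapping groups and the second −0.18 without overlap.

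mRpS33, a small-subunit protein specific to mitochondria, had a difference of the opposite sign. The levels were 0.23, 0.34, 0.24 and 0.40 in control_23C replicates 1 to 4 and 0.46, 0.49, 0.39 and 0.49 in activated_31C replicates 1 to 4. The groups overlapped through control_23C replicate 4 and activated_31C replicate 3 alone. The difference was 0.15 (SE 0.0530, 95% interval 0.03 to 0.28, limma adjusted p = 0.0501), just short of the threshold. Without control_23C replicate 4 it was 0.18 and passed, with an adjusted p of 0.0289. The Release 6 gene table lists a protein-coding gene, CG14881, that overlaps mRpS33, and the table gives no strand, so which of the overlapping genes the probe reads was not tested. The spots of this probe gave 0.15 each, one with and one without overlap between groups.

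mRpL14, the mitochondrial counterpart of the bacterial large-subunit protein L14, read between 0.83 and 0.88 in control_23C. In activated_31C it read 0.87, 0.79, 0.76 and 0.75. Replicate 1 of activated_31C lay within the control range and the other 3 below it. The difference of −0.07 (SE 0.0421, 95% interval −0.16 to 0.03, limma adjusted p = 0.240) did not pass, and it turned to 0.0153 when arrays were centred on the median of their own detected probes.

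The cytosolic genes had positive differences on the scale used here, though the sign of sta, RpL29 and RpL7 turned under other scalings, none passed the threshold, and the groups overlapped in all 4. sta (stubarista) encodes the small-subunit protein RpSA, whose vertebrate homologue is also known as the laminin receptor precursor. It read 6.10, 6.16, 6.11 and 6.08 in control_23C replicates 1 to 4 and 6.09, 6.45, 6.29 and 6.32 in activated_31C replicates 1 to 4. Of the activated_31C arrays, 3 lay above all control_23C arrays, and replicate 1 lay among the controls. The difference was 0.17 (SE 0.0755, limma adjusted p = 0.0995), and without activated_31C replicate 1 it was 0.24 and passed, with an adjusted p of 0.0133. With quantile normalization, which gives every array the same distribution of values, it turned to −0.0567.

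RpL29 encodes a small protein of the large subunit. It read 5.69, 5.74, 5.61 and 5.64 in control_23C replicates 1 to 4 and 5.57, 5.97, 5.70 and 5.83 in activated_31C replicates 1 to 4. The activated_31C arrays lay on both sides of the controls, with replicate 1 below all of them and replicates 2 and 4 above. The difference of 0.10 (SE 0.0864, 95% interval −0.10 to 0.30, limma adjusted p = 0.404) turned to −0.124 with quantile normalization and to −0.0416 with spike-in scaling. The protein-coding gene CG9752 overlaps RpL29 in the Release 6 gene table, so the source of the signal is uncertain for RpL29 as it is for mRpS33. The same table lists genes for small nucleolar RNAs that overlap sta and RpL11, and whether those probes read them was not tested.

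RpL11 encodes a large-subunit protein that binds the 5S ribosomal RNA together with RpL5, and it had the widest spread of the members. It read 4.65, 5.59, 5.61 and 5.62 in control_23C replicates 1 to 4 and 5.36, 5.97, 5.73 and 5.77 in activated_31C replicates 1 to 4. Control_23C replicate 1 stood far below the rest, with an unscaled signal of 134181 intensity units against 242151 to 258355 on the other control_23C arrays. The difference was 0.34 (SE 0.243, 95% interval −0.23 to 0.90, limma adjusted p = 0.298). Without control_23C replicate 1 it was 0.10. Over all tested probes, 7.78% had a control_23C SD as large as the 0.48 of RpL11.

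RpL7, a large-subunit protein, read −3.47, −3.61, −3.59 and −3.42 in control_23C replicates 1 to 4 and −3.51, −3.29, −3.45 and −3.31 in activated_31C replicates 1 to 4. Replicates 2 and 4 of activated_31C lay above all controls and the other 2 arrays among them. The difference of 0.13 (SE 0.0691, 95% interval −0.03 to 0.29, limma adjusted p = 0.171) did not pass, and it turned to −0.00821 with spike-in scaling. Before scaling, this probe was dim, at 428 to 481 intensity units in control_23C and 444 to 484 in activated_31C. How well it reads the RpL7 transcript was not tested, though RpL7 counts equally in the cytosolic means.

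The 4 cytosolic genes ordered the activated_31C arrays in the same way at both ends. Replicate 1 was the lowest and replicate 2 the highest of the 4 arrays in each of them. Over all tested probes, 14.8% had both of these arrays at those ends, and 17.3% of the brightest 25% of probes. After quantile normalization replicate 1 was still the lowest in all 4 genes, while replicate 2 was the highest in RpL7 and RpL29 and replicate 3 in sta and RpL11. No share over all probes was taken after that normalization, or for probes as bright as sta, RpL11 and RpL29. Whether this order is particular to the cytosolic genes was therefore not tested.

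**Figure D2:**
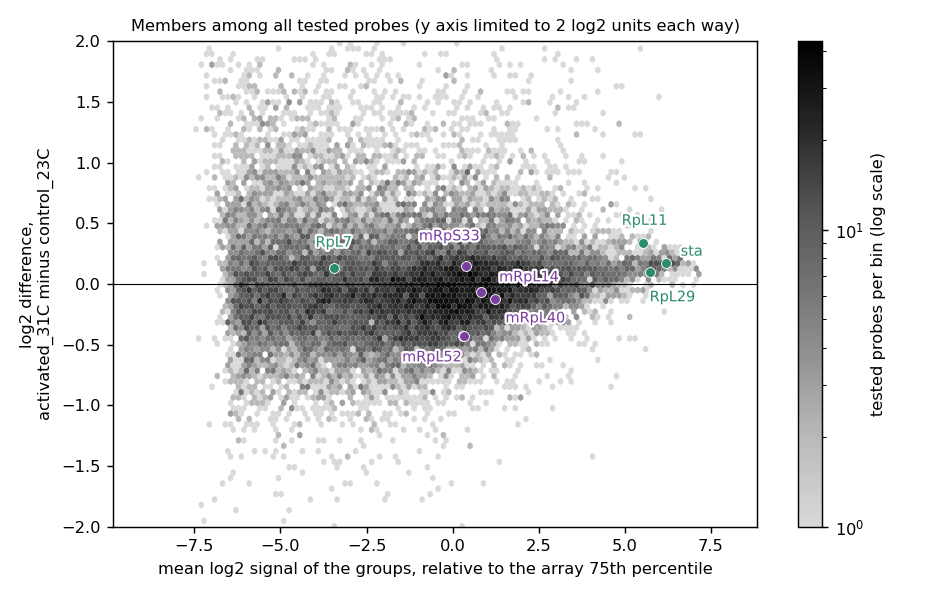
Difference between the groups (y axis, log2) against the mean level of a probe (x axis, log2 signal relative to the array's 75th percentile) for all 22442 tested probes (grey, darker where more probes fall in a bin), with the mitochondrial (purple) and cytosolic (green) members marked. The 495 probes with differences of over 2 log2 units are outside the y axis. RpL11, RpL29 and sta lie where nearly all probes have positive differences on this scale. mRpL52, at −0.43, lies below the median of −0.03 for probes at levels from 0 to 1, its own signal range.

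For 3 of the cytosolic genes, signal range moved with the difference. Among the 243 tested probes with a mean level from 5 to 6, where RpL11 and RpL29 lie, 90.1% had a positive difference and the median difference was 0.15. Among the 116 probes from 6 to 7, the range of sta, 96.6% were positive and the median was 0.18, against 0.17 for sta itself. RpL7, at a level between −4 and −3, lay in a range where 45.5% of 1987 probes were positive and the median was −0.04. mRpL52, mRpS33 and mRpL14 lay between 0 and 1, where the median over 2914 probes was −0.03 and 28.4% were lower past the threshold. Over all spots, control_23C arrays had from 5 to 15 saturated spots each and activated_31C arrays 0, though no member probe was saturated. The part of signal range in the cytosolic differences was not tested.

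**Figure D3:**
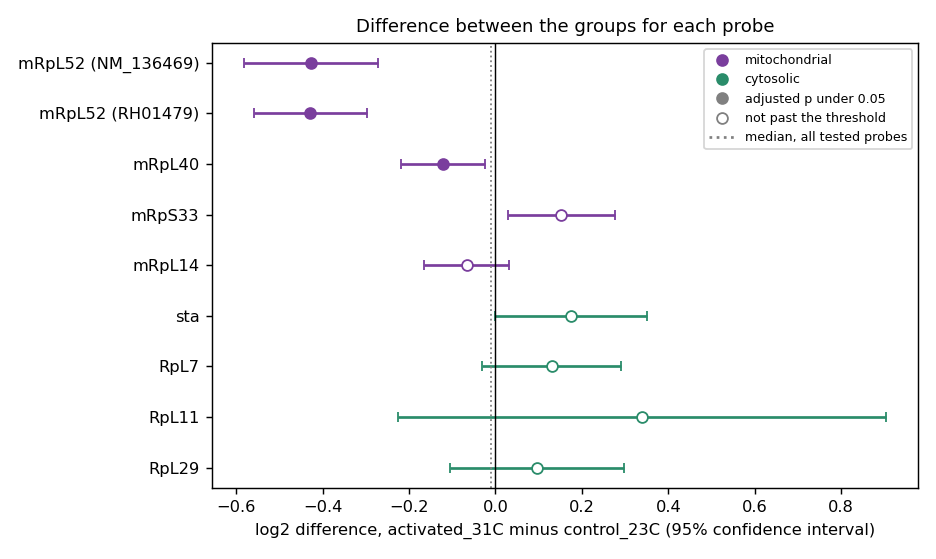
Log2 difference, activated_31C minus control_23C, with its 95% confidence interval (x axis) for each of the 9 probes, purple for mitochondrial and green for cytosolic genes. Filled points passed the limma threshold, the dotted line marks the median of all tested probes at −0.01, and the 3 filled points are the pair of mRpL52 probes at −0.43 and mRpL40 at −0.12. On other scalings the sign of mRpL14, sta, RpL7 and RpL29 turned.

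The question of whether mitochondrial and cytosolic genes moved alike was answered by counts and means, as a description. Among the mitochondrial genes 2 of 4 were lower past the threshold and none higher. Of all tested probes, 24.3% were lower past the threshold and 43.4% passed it in either direction. The count of mitochondrial genes past the threshold in either direction was 1 in 6 of the 8 fits that each left out 1 array. It was 0 when arrays were centred on the median of their own detected probes. Without control_23C replicate 4 it was 2 through mRpL52 and mRpS33, with mRpS33 higher and mRpL40 lost. Among the cytosolic genes 0 of 4 passed, beside 43.4% of all tested probes in either direction, and 0 of 4 had an unadjusted p under 0.05. Fewer of the bright probes passed: 16.5% at levels from 5 to 6 (RpL11 and RpL29) and 27.6% from 6 to 7 (sta). In the range of RpL7, from −4 to −3, 44.1% passed. The smallest unadjusted p was 0.0508, for sta. The 2 mitochondrial genes called were also the ones whose groups did not overlap, beside 43.1% of all probes. The mean difference was −0.12 over the mitochondrial genes (median −0.09) and 0.19 over the cytosolic genes (median 0.15). The mitochondrial mean ranged from −0.254 with spike-in scaling to −0.0342 with centring on each array's detected median, and the cytosolic mean became −0.00731 with quantile normalization. The median over all tested probes was −0.01, with 48.7% of the differences positive.

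The class means were then set against their own control_23C average on each array. The mitochondrial mean was −0.00, 0.00, −0.04 and 0.04 on control_23C replicates 1 to 4 and −0.10, −0.11, −0.15 and −0.11 on activated_31C replicates 1 to 4. These groups did not overlap, although without mRpL52 the mean difference of the remaining 3 genes was −0.01. The cytosolic mean was −0.16, 0.06, 0.03 and 0.07 on control_23C replicates 1 to 4 and −0.03, 0.37, 0.16 and 0.25 on activated_31C replicates 1 to 4. Here activated_31C replicate 1 lay among the controls and the other 3 arrays above them.

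The gap between the class means was 0.30 ± 0.17 on activated_31C arrays and 0.00 ± 0.11 on control_23C arrays (SD, n = 4), counted from the control_23C average. This gap is a difference within each array and so is free of the scaling constant of the array. Activated_31C replicate 1, at 0.07, was barely above the highest control_23C array, at 0.06, and the other 3 were at 0.31 to 0.47. The gap shrank to 0.20 without mRpL52 and to 0.15 without mRpL52 and RpL11, and it was 0.14 with quantile normalization.

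**Figure D4:**
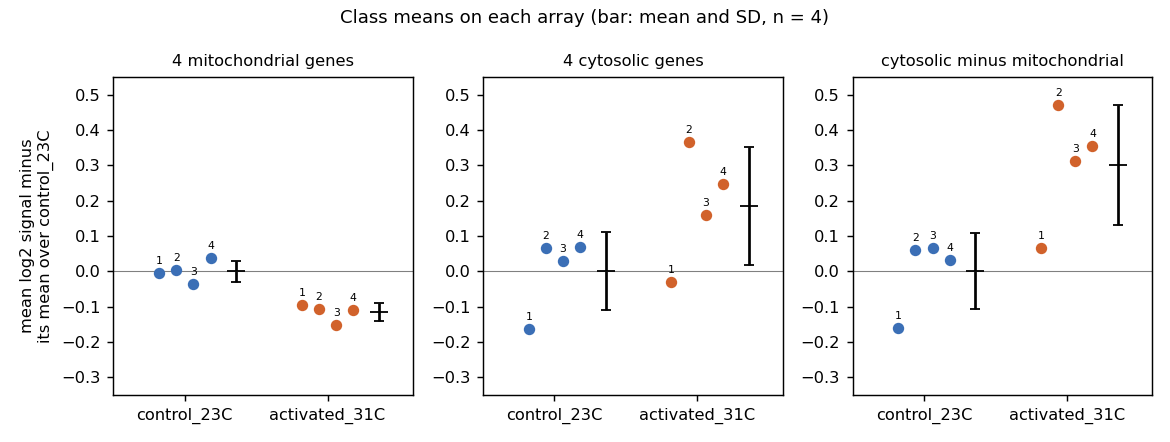
Mean log2 level of the 4 mitochondrial genes, of the 4 cytosolic genes and their gap on each array, minus the control_23C average (y axis), for both groups, with replicate numbers and bars for the mean and SD of 4 arrays. The mitochondrial mean is −0.10 to −0.15 on activated_31C arrays, and the cytosolic mean runs from −0.03 to 0.37, while with quantile normalization the mean cytosolic difference is −0.00731.

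The ratio of mRpL52 to each other member was taken within each array, which also removes any scaling constant. The groups did not overlap in any of these 7 ratios, all lower in activated_31C. All 7 share mRpL52, whose own groups did not overlap, as for 43.1% of all tested probes, so they are not separate results. How often ratios of other probes do not overlap was not tested. The difference of the log2 ratio was −0.31 against mRpL40, −0.36 against mRpL14 and −0.58 against mRpS33. Against the cytosolic genes it was −0.53 for RpL29, −0.56 for RpL7, −0.60 for sta and −0.77 for RpL11. A ratio within an array shows unequal change and not which of the genes changed.

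Other genes of the same machinery were mostly without a named probe. Of 97 cytosolic ribosomal protein genes listed, 5 had a named probe, and the 4 tested were the members. The fifth, RpS29 of the small subunit, was well above background on 1 of 8 arrays, so that it was not tested. Of 76 mitochondrial ribosomal protein genes, the 4 members alone had a named probe. None of 33 genes of mitochondrial translation and assembly and none of 46 cytosolic translation factors had one. Of 59 ribosome biogenesis genes 1 had a named probe: Non1, for a nucleolar GTP-binding protein, with a difference of 0.03 (SE 0.105, limma adjusted p = 0.827). Probes without a name may read other genes of these lists.

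The genes with profiles most like the class means were sought among 251 other genes with a symbol, by the root-mean-square distance of centred log2 levels over the 8 arrays. Nearest to the mitochondrial mean was spen, for an RNA-binding regulator of transcription, at a distance of 0.0309, against a median of 0.165 over the genes compared. It was followed by Polr2J, an RNA polymerase II subunit gene, at 0.0508 and caps, for a leucine-rich repeat protein of the cell surface, at 0.0528. The differences of these genes were −0.12 for spen (limma adjusted p = 0.0444), −0.08 for Polr2J (0.159) and −0.06 for caps (0.352). Nearest to the cytosolic mean was snRNA:U1:21D, a spliceosomal RNA gene with near-identical copies elsewhere that the probe may also read, at 0.0654 against a median of 0.227. Then came wrd, for a regulatory subunit of protein phosphatase 2A, at 0.0711 and scaRNA:MeU5-C46, a guide RNA for modification of the U5 spliceosomal RNA, at 0.0765. Their differences were 0.22 (limma adjusted p = 0.0204), 0.12 (0.248) and 0.12 (0.208).

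**Figure D5:**
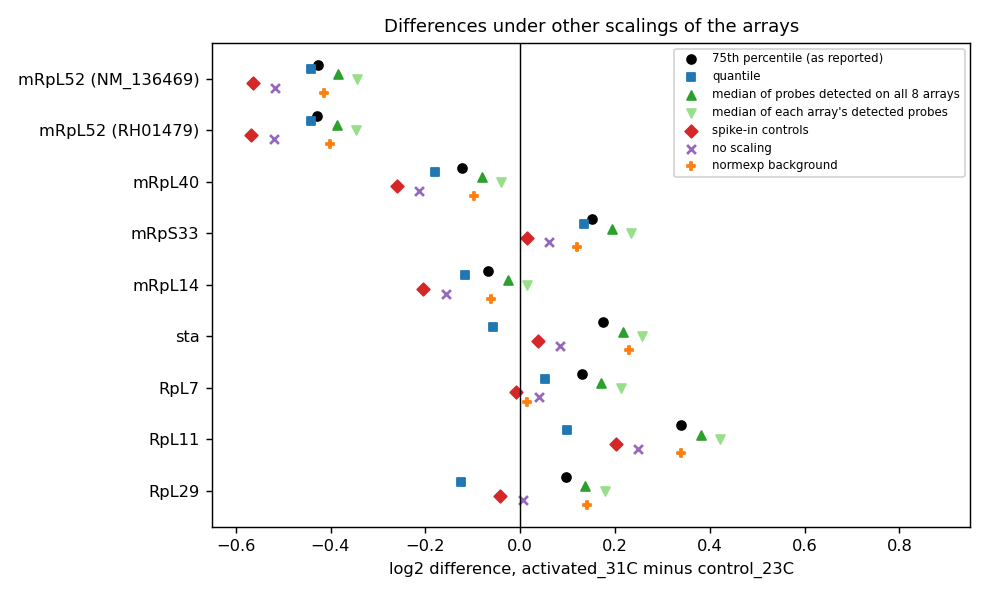
Log2 difference, activated_31C minus control_23C (x axis), of each of the 9 probes under 7 ways of scaling or background correction (symbols). The mRpL52 probes stay between −0.57 and −0.34, while sta, RpL7, RpL29 and mRpL14 cross 0 under at least 1 other scaling.

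The sign of the difference held under all alternatives for 4 of the 8 genes, mRpL52, mRpL40, mRpS33 and RpL11. The mRpL52 probes were lower in activated_31C under all of them, from −0.57 with spike-in controls to −0.34 when arrays were centred on the median of their own detected probes, where the call of both was lost. mRpL40 was also negative under every scaling, from −0.26 to −0.04, and mRpS33 and RpL11 were positive under each one. Spike-in scaling moved the median of all probes to −0.15, and relative to that median mRpS33, at 0.0143, and RpL7, at −0.00821, lay above it.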

How the data were processed

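Spot intensity values were obtained by the authors with Agilent Feature Extraction, version 10.7.3.1 per the file headers and 9.1.3.1 per the submitters' processing notes. That processed signal is background-subtracted and detrended per the file headers, and the build there is dm3. The deposited files also hold other values, flags for signals well above background, saturated or outlying. The authors' deposited table is on the log2 scale. It matched the scanner signal after 75th-percentile scaling and centring per probe (r over probes 0.982 to 0.989), with column medians from −0.0621 to 0.0379.

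Control spots and 1108 outlier-flagged spots were left out, spots of a probe were averaged, and log2 signals were scaled by the 75th percentile. A probe had to be well above background throughout at least 1 group and measured on at least 6 arrays. Groups followed the sample titles and were compared by limma's lmFit and eBayes, two-sided (version 3.58.1, R 4.3.3). A gene with several probes was counted by its brightest. The fit was tested on simulated data, in which the changes put in were larger than that of any member.

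Names came from a RefSeq table of another build (Release 6). Its coordinates were used to find overlapping genes and not to place probes. The table named 418 probes with 1 gene, 2 with several and 31742 with none, so other probes of these genes may be unnamed. Named genes are the members, measured genes of the lists, and the 3 nearest profiles per class. Members and lists were chosen with earlier results of these data known. Normexp correction (offset 50) used median in place of the planned mean spot signals. There were 21 planned and 4 added alternatives, which the closing section names where a call changed. Same-numbered samples did not deviate together in every pair (r from −0.28 to 0.65), so replicate numbers were not taken to pair samples.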

Additional observations from a re-analysis of the deposited data

Results flagged for a closer look

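RpL11 in control_23C had 1 array far from the others. Replicate 1 was the lowest of the 4 at 4.65, and its gap to the next array was 0.973 of the whole range of the group, above Dixon's critical value for 4 samples. Chance gives a gap above that critical value in about 1 of 20 groups. For the 18 groups of member probes looked at this is 0.9, and 1 was found. That rate is for passing the critical value, and how often chance gives a gap as large as 0.973 was not tested. Without that array the difference of RpL11 was 0.10 in place of 0.34.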

How the results depend on the processing

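The count of mitochondrial genes past the threshold in either direction was 2. It was 1 with normexp, spike-in scaling, no filter, a replicate block, or without control_23C replicates 3 and 4 (with or without activated_31C replicate 3). It was 0 when arrays were centred on the median of their own detected probes, 1 to 2 with single arrays left out, and at most 3 in any alternative. mRpL52 passed in 24 of 25 alternatives by clone RH01479 and in 23 of 24 by NM_136469, mRpL40 in 7 of 25 and mRpS33 in 8 of 25. mRpS33 passed with the authors' deposited table (0.0475), probes well above background on all 8 arrays (0.0489), 1 probe per target (0.0483), an intensity trend (0.0382), outlier-flagged spots kept (0.0476), background-flagged spots left out (0.0316) and centring on the median of probes detected on all 8 arrays (the all-8 median, 0.0212), as adjusted p-values, besides without control_23C replicate 4. mRpL40 was lost with the authors' deposited table (0.0537), outlier-flagged spots kept (0.0539), background-flagged spots left out (0.133) and the all-8 median (0.181), with normexp, spike-ins, each array's detected median, no filter and the block, and with arrays left out. The settings on flagged spots were chosen after seeing the data. Array weights changed no member's call. The count of cytosolic genes was 0 in 24 of 25 alternatives and 0 to 1 with single arrays left out, the 1 being sta without activated_31C replicate 1. Probes past the threshold over the whole array numbered 9741, against 3821 when arrays were centred on their own detected median, 5454 without control_23C replicates 3 and 4 and activated_31C replicate 3, and 8441 to 9390 with single arrays left out.

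The mean mitochondrial difference of −0.12 became −0.150 with quantile normalization, −0.0342 with each array's detected median, −0.0749 with the median of probes detected on all 8 arrays, −0.254 with spike-ins and −0.207 without scaling, the last and the all-8 median being chosen after seeing the data. The median over all probes was −0.10 without scaling and −0.15 with spike-ins. Quantile normalization gave −0.00731 for the cytosolic mean and 0.143 for the gap. With single arrays left out, the ranges were −0.128 to −0.104 (mitochondrial), 0.125 to 0.257 (cytosolic) and 0.245 to 0.380 (gap). Signs turned for sta (−0.0567, quantile), RpL29 (−0.124, quantile, and −0.0416, spike-in), RpL7 (−0.00821, spike-in) and mRpL14 (0.0153, each array's detected median), and the cause was not tested. With the replicate number as a block, mRpL40 was −0.12 with an adjusted p of 0.114, mitochondrial calls numbered 1, and no other member changed its call; same-numbered samples correlated at 0.20, 0.09, 0.65 and −0.28. The 4 arrays per group limit all of these values, and 7167 further spots with a background flag were kept.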
